A study of Mus musculus with 19 samples.

Results

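The 7 genes Cnr1, Dagla, Daglb, Mgll, Abhd6, Napepld and Faah, which encode the cannabinoid receptor CB1 and the main enzymes that make and break down its lipid ligands, were followed in RNA-seq and ribosome profiling libraries of mouse hippocampal slices. They were chosen by gene symbol, as the rows of these names among the 20436 genes of each count table, and the rule uses no measured value, although the list was drawn up with earlier results of these data known. All 7 had enough reads to be tested in both assays, among 12935 genes tested in RNA and 13208 tested in ribosome-protected fragments (RPFs), the pieces of mRNA that a bound ribosome shields from nuclease. The slices came from male wild-type mice aged 28 to 42 days, and each replicate pooled slices of several mice. Basal slices received vehicle (artificial cerebrospinal fluid) and DHPG slices received 100 µM DHPG, an agonist of the group I metabotropic glutamate receptors, for 5 min. All slices were then placed in cycloheximide at 100 µg/ml, which holds ribosomes on mRNA. RNA was sequenced from 4 basal and 5 DHPG replicates and RPFs from 5 and 5, which makes 19 libraries, and the area CA3 had not been cut away in these replicates. The comparison asked which RNAs and RPFs changed within minutes of the stimulus that starts mGluR-dependent long-term depression.

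Endocannabinoids are lipids that are made on demand in the postsynaptic cell and travel backwards across the synapse to CB1 on the axon terminal, where they lower transmitter release. Group I metabotropic glutamate receptors drive this route through Gq and phospholipase C beta, whose product diacylglycerol is cut to 2-arachidonoylglycerol (2-AG) by diacylglycerol lipase. Monoacylglycerol lipase and ABHD6 hydrolyse 2-AG, whereas the second ligand, anandamide, can be released by the phospholipase D NAPE-PLD and is hydrolysed by fatty acid amide hydrolase.

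The 4 enzymes of 2-AG are serine hydrolases whose active-site serine sits between a pair of glycines, and the coding stretch around it is given because it marks which rows of the tables share a catalytic design. Each line gives the coding sequence 5′ to 3′ from GENCODE vM21 (mm10), with the codons of the glycine to glycine motif in capitals.
Dagla, codons 468 to 476, serine codon 472: gtggtaGGCCACTCCTTGGGAgcaggc
Daglb, codons 439 to 447, serine codon 443: ctggtgGGGCACAGCCTAGGAgccggc
Mgll, codons 118 to 126, serine codon 122: ctcctgGGCCACTCCATGGGCggtgcc
Abhd6, codons 144 to 152, serine codon 148: cttataGGCACCTCCATGGGTggccac
The motif was found 1 time in each of these 4 coding sequences. Despite the shared motif, the longest run of identical bases between the coding sequences of Dagla and Daglb was 12 bases and that between Mgll and Abhd6 was 9 bases, shorter than a ribosome footprint. Daglb overlaps Rac1, on the opposite strand, over 2309 bases of the genome, and whether counting used strand is not given in the sources used here, so reads of Daglb and Rac1 in that stretch cannot be told apart. Other overlapping genes have no row in the tables. They lie on the opposite strand for Dagla (2496 bases), for Mgll (1449 and 3122 bases) and, as a pseudogene, for Napepld (635 bases), and Mgll also overlaps 3 genes on its own strand, over 2889 to 3773 bases, from which strand could not separate it.

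Total counts ran from 4870813 to 7793244 in the RNA libraries and from 5692064 to 22092434 in the RPF libraries, and the 7 genes had between 81 and 2074 counts in an RNA library and between 130 and 5395 in an RPF library. Markers of excitatory neurons, inhibitory neurons, CA1, CA3 and dentate gyrus were all detected, with 0 genes at 0 on each of these lists. The 6 thalamus markers were listed because earlier results of these data were known. The number of them that passed the test is therefore no independent result and cannot be set against the other lists. In RPF 6 of 6 passed (median log2 difference 0.54), beside 0.22% of all genes tested. In RNA 1 of the 5 tested passed (median 0.61), beside 0.00773% of all genes tested. All of these markers were fitted higher after DHPG. Their summed RPF level was 106 to 134 CPM (counts scaled to library size) in the basal libraries and 113 to 178 CPM in the DHPG libraries, and 0 of the 6 were at 0. Oligodendrocyte markers, of which 1 of 5 passed the test in RPF, summed to 3314 to 7269 CPM in basal and 3825 to 8452 CPM in DHPG RPF libraries. In RNA 5 of 5 were fitted higher (median 0.17) and 0 passed. No marker of the other lists passed, but some leaned 1 way. Astrocyte and microglia markers were fitted higher in 5 of 5 in RPF (medians 0.052 and 0.087) and in 4 of 5 and 3 of 5 in RNA. Endothelium markers were fitted higher in 0 of 5 in RPF and 1 of 5 in RNA (median -0.14 in each). Excitatory neuron, CA1 and dentate gyrus markers were all fitted higher in RNA, and 3 of 4, 2 of 3 and 2 of 3 of them in RPF. The part of any of these lists in the values below was not tested. In such bulk tissue fewer cells of a type and less RNA per cell cannot be told apart.

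None of the 7 genes changed after 5 min of DHPG by the test used, in RNA, in RPF or in translational efficiency (TE, the RPF level over the RNA level of the same gene). The test was edgeR's quasi-likelihood test with the replicate number as a block and p-values adjusted over all genes tested. In RNA 0 of 7 passed an adjusted p of 0.01, beside 0.00773% of all genes tested, and 1 of 7 (Dagla) had an unadjusted p under 0.05, beside 8.02% of all genes. In RPF 0 of 7 passed an adjusted p of 0.05, beside 0.22% of all genes, and 0 of 7 had an unadjusted p under 0.05, beside 10.8%. In TE 0 of 7 passed, beside 0% of all genes, and 0 of 7 had an unadjusted p under 0.05, beside 6.77%. DESeq2 with the same block called 0 of the 7 in RNA and 0 of the 2 to which it gave an adjusted p in RPF, and limma on the difference of RPF and RNA called 0 of 7 in TE. All 7 RPF estimates lay above 0, with a median log2 difference of 0.058 beside 0.0031 over all genes, and each of the 7 was higher in 4 of 5 replicate pairs. A fitted RPF estimate above 0 was found for 51.4% of all genes, and the share of all genes higher in 4 of 5 pairs was not computed. Without replicate 2 the median of the 7 was 0.021, with 6 of 7 above 0. None of the 7 was higher in every RPF pair, beside 5.16% of all genes. In RNA 5 of 7 estimates lay above 0 (52.1% of all genes), with a median of 0.023 beside 0.0068. In TE 4 of 7 did (49.5% of all genes).

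**Figure D1:**
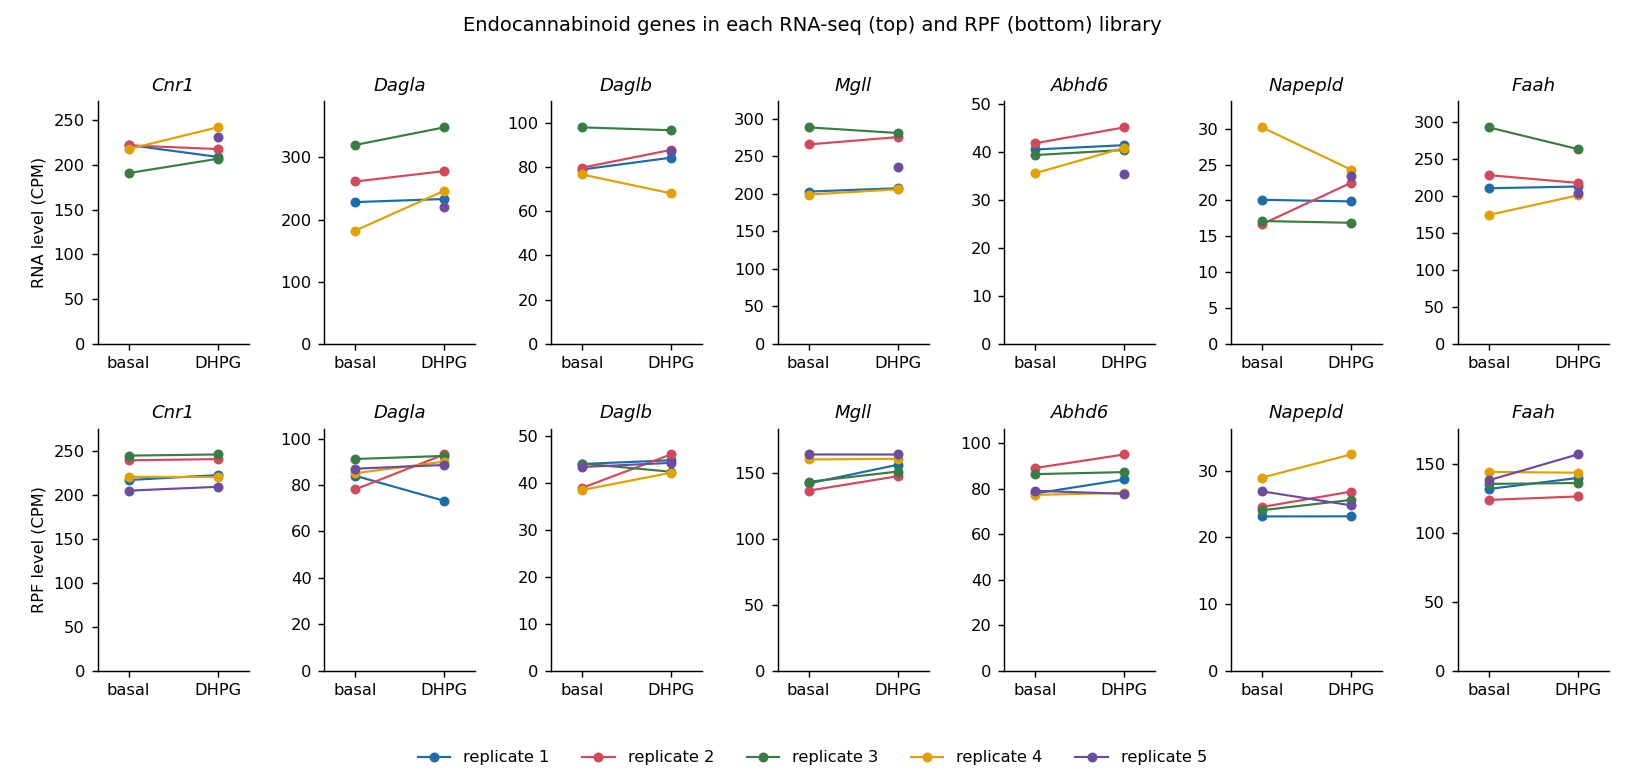
Level of each gene in CPM (counts scaled to library size) in every library, RNA above and RPF below, with a line joining the basal and DHPG library of each replicate number. DHPG RNA replicate 5 has no basal partner. Basal and DHPG values overlap for every gene in both assays, and the spread between basal replicates is wider in RNA than in RPF for Dagla, Daglb, Mgll, Napepld and Faah.

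**Figure D2:**
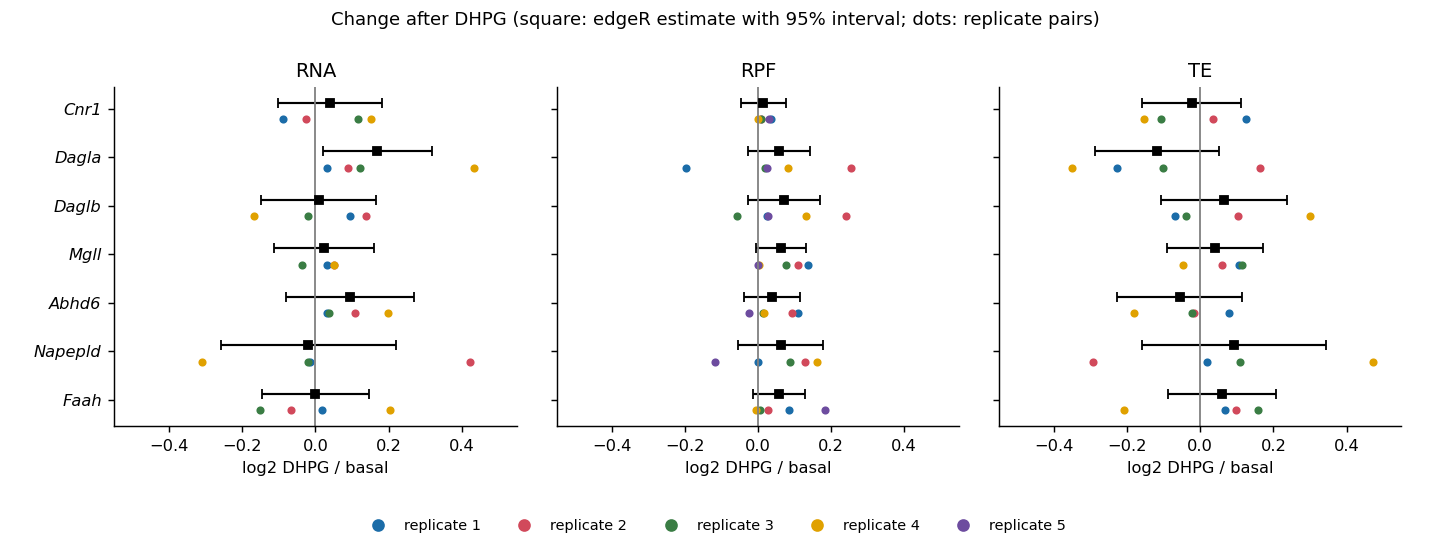
Log2 difference of DHPG and basal for each gene in RNA, RPF and TE. Squares give the edgeR estimate with its 95% interval and dots the replicate pairs. Only the interval of Dagla in RNA, 0.021 to 0.317, lies off 0, at an adjusted p of 0.578.

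Cnr1 encodes CB1, the receptor that inhibits release at GABA and glutamate terminals. It lies on chromosome 4 (33924593 to 33948831, forward strand, mm10), has 2 exons in the transcript used, and carries its 473 codons in a transcript of 5807 bases, of which 24.4% are coding. Its RNA level was 222, 222, 191 and 218 CPM in basal replicates 1 to 4 and 209, 218, 207, 242 and 231 CPM in DHPG replicates 1 to 5. The ranges overlapped, and 2 of 4 pairs were higher after DHPG. The fitted log2 difference was 0.039 ± 0.070 (SE, edgeR adjusted p = 0.921). Its RPF level was 217, 239.6, 245, 221 and 205 CPM in basal and 223, 241, 246, 221 and 209 CPM in DHPG replicates 1 to 5. Replicates 2 and 3 were the highest and replicate 5 the lowest in both groups, so the spread lay between replicate numbers and not between treatments. The RPF log2 difference was 0.015 ± 0.031 (SE, edgeR adjusted p = 0.901), with a 95% interval of -0.047 to 0.077, the narrowest of the 7 genes. Its TE log2 difference was -0.024 ± 0.066 (SE, edgeR adjusted p = 0.967).

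Dagla encodes diacylglycerol lipase alpha, the enzyme that supplies most of the 2-AG used for retrograde signalling. The gene is on chromosome 19 (10245265 to 10304877, reverse strand), with 20 exons and 1044 codons, the longest coding sequence of the 7. Its RNA level was 228, 261, 320.1 and 182 CPM in basal replicates 1 to 4 and 233, 278, 348, 246 and 220.1 CPM in DHPG replicates 1 to 5. Every DHPG library with a partner was above that partner, although the 2 groups overlapped widely because the replicates differed more than the treatments did. The pairs differed by 0.031, 0.090, 0.122 and 0.434 on the log2 scale. The fitted RNA difference was 0.17 ± 0.072 (SE, unadjusted p = 0.0270, edgeR adjusted p = 0.578), so it did not pass. Dagla and Abhd6 were the 2 of 7 genes higher in every RNA pair, beside 8.67% of all genes. Without replicate 4, the pair with the widest gap, the Dagla RNA difference was 0.079. In RPF, Dagla stood at 84, 78.1, 91.2, 85.1 and 87 CPM in basal and 73.2, 93.2, 92.5, 90.1 and 88.6 CPM in DHPG replicates 1 to 5. Replicate 1 lay below its partner and replicates 2 to 5 lay above theirs. The RPF difference was 0.058 ± 0.042 (SE, edgeR adjusted p = 0.669) and the TE difference -0.12 ± 0.083 (SE, edgeR adjusted p = 0.827).

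Daglb, the second diacylglycerol lipase, is known for a larger part in microglia and other cells outside neurons. Chromosome 5 carries it (143464584 to 143505942, forward strand), with 15 exons and 669 codons. RNA levels were 78.9, 79.7, 98 and 76.7 CPM in basal replicates 1 to 4 and 84.3, 87.8, 96.7, 68.1 and 87.3 CPM in DHPG replicates 1 to 5. The 2 groups covered the same range and 2 of 4 pairs were higher after DHPG, with a log2 difference of 0.0089 ± 0.077 (SE, edgeR adjusted p = 0.989). RPF levels were 44.1, 39.0, 44.2, 38.5 and 43.4 CPM in basal and 44.9, 46.1, 42.4, 42.2 and 44.3 CPM in DHPG replicates 1 to 5. The lowest 2 values were both basal. The RPF difference of 0.072 ± 0.049 (SE, edgeR adjusted p = 0.639) was the highest estimate among the 7 genes, and it too did not pass. Without replicate 2 it was 0.019. Its TE difference was 0.065 ± 0.085 (SE, edgeR adjusted p = 0.915).

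Mgll encodes monoacylglycerol lipase, the presynaptic enzyme that clears most 2-AG in brain. The gene, on chromosome 6 (88724412 to 88828360, forward strand), has 331 codons and 6 coding transcripts. Its RNA level was 203, 266, 289 and 199 CPM in basal replicates 1 to 4 and 208, 276, 281, 206 and 236 CPM in DHPG replicates 1 to 5. Replicates 2 and 3 were high and replicates 1 and 4 low in both groups, and the treatment left that pattern in place. The log2 difference was 0.023 ± 0.067 (SE, edgeR adjusted p = 0.961). RPF levels were 142, 136, 143, 160.0 and 164 CPM in basal and 156, 147, 151, 160.5 and 164 CPM in DHPG replicates 1 to 5. In RPF replicates 4 and 5 were the highest, and replicates 1 to 3, which were lower, held the pairs with the wider gaps (0.137, 0.111 and 0.076 on the log2 scale). With a difference of 0.063 ± 0.034 (SE, edgeR adjusted p = 0.507), Mgll had the smallest adjusted p of the 7 genes in RPF. Its TE difference was 0.041 ± 0.064 (SE, edgeR adjusted p = 0.934).

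Abhd6 encodes a postsynaptic membrane hydrolase that degrades a smaller share of 2-AG close to where it is made. Its place is chromosome 14 (8002902 to 8056763, forward strand), with 9 exons and 336 codons. RNA levels were 40.5, 41.8, 39.4 and 35.6 CPM in basal replicates 1 to 4 and 41.4, 45.1, 40.4, 40.9 and 35.5 CPM in DHPG replicates 1 to 5. Each pair was higher after DHPG, by 0.032 to 0.199 on the log2 scale, yet the unpaired DHPG replicate 5 was the lowest library of all, close to basal replicate 4. The fitted difference was 0.095 ± 0.085 (SE, edgeR adjusted p = 0.813). RPF levels were 77.9, 89.1, 86.4, 77.3 and 79.1 CPM in basal and 84, 95, 87.3, 78.2 and 77.7 CPM in DHPG replicates 1 to 5, with replicate 2 the highest in both. The RPF difference was 0.039 ± 0.038 (SE, edgeR adjusted p = 0.777) and the TE difference -0.056 ± 0.084 (SE, edgeR adjusted p = 0.928).

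Napepld encodes the phospholipase D that frees anandamide and related amides from their membrane precursors. Like Daglb it is on chromosome 5 (21662901 to 21701396, reverse strand), with 5 exons and 396 codons, and it was the least abundant of the 7 in reads. RNA levels were 20.1, 16.7, 17.1 and 30.2 CPM in basal replicates 1 to 4 and 19.9, 22.5, 16.9, 24.3 and 23.4 CPM in DHPG replicates 1 to 5. Basal replicate 4 lay well above the other basal libraries and the log2 difference of that pair was -0.310, whereas that of replicate 2 was 0.422. The fitted difference was -0.019 ± 0.117 (SE, edgeR adjusted p = 0.980), with a 95% interval of -0.259 to 0.220, the widest of the RNA intervals. RPF levels were 23.1, 24.5, 24.1, 29.0 and 26.9 CPM in basal and 23.1, 26.8, 25.6, 32.4 and 24.8 CPM in DHPG replicates 1 to 5, with replicate 4 the highest in both groups. The RPF difference was 0.062 ± 0.058 (SE, edgeR adjusted p = 0.758) and the TE difference 0.092 ± 0.123 (SE, edgeR adjusted p = 0.918).

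Faah encodes fatty acid amide hydrolase, the membrane enzyme that ends anandamide signalling. Like Cnr1 it is on chromosome 4 (115967145 to 116017926, reverse strand), with 15 exons and 579 codons. RNA levels were 210.1, 228, 292 and 174 CPM in basal replicates 1 to 4 and 213, 217, 263, 201 and 204 CPM in DHPG replicates 1 to 5. Replicate 3 was the highest in both groups, and the basal libraries spread over the whole DHPG range, with a log2 difference of -0.00059 ± 0.071 (SE, edgeR adjusted p = 0.998). RPF levels were 132, 124, 135, 144 and 138 CPM in basal and 139.8, 126, 136, 144 and 157 CPM in DHPG replicates 1 to 5. Replicate 5 held the widest RPF gap, at 0.183, and the others lay within 0.085 of their partners. The RPF difference was 0.058 ± 0.035 (SE, edgeR adjusted p = 0.579) and the TE difference 0.059 ± 0.073 (SE, edgeR adjusted p = 0.908).

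The resting levels set the members far apart. To compare genes, CPM was divided by length in kilobases, the whole transcript for RNA and the coding sequence less 60 bases for RPF, after the way the authors counted each assay. In RNA the order of the basal levels was Mgll (183 ± 34.5 CPM per kb, SD, n = 4), Faah (59.1 ± 13), Dagla (44 ± 10.3), Cnr1 (36.7 ± 2.59), Daglb (17.9 ± 2.12), Abhd6 (17.7 ± 1.21) and Napepld (5.32 ± 1.59). The median of all genes was 9.63 CPM per kb, so that 6 members lay above it and Napepld below. Neighbours kept their order in 4 of 4 replicates for Mgll over Faah, Faah over Dagla, Cnr1 over Daglb and Abhd6 over Napepld, while Dagla exceeded Cnr1 in 3 of 4 and Daglb exceeded Abhd6 in 2 of 4. The place of Mgll rests on its transcript: the one with its longest coding sequence has 1308 bases, the longest coding transcript has 3991, and by that length Mgll RNA stood at 59.9 CPM per kb, next to Faah.

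The RPF order was another. Cnr1 led (166 ± 12.1 CPM per kb, SD, n = 5), with Mgll (160 ± 13) not apart from it, since Cnr1 was the higher in 3 of 5 replicates. Abhd6 (86.5 ± 5.71) and Faah (80.3 ± 4.5) followed, in that order in 4 of 5 replicates. Dagla (27.7 ± 1.55), Napepld (22.6 ± 2.1) and Daglb (21.5 ± 1.46) came last, where Dagla exceeded Napepld in 5 of 5 and Napepld exceeded Daglb in 3 of 5. The 3 tiers, Cnr1 with Mgll, Abhd6 with Faah, and the 2 lipases with Napepld, did not overlap in any basal library. All 7 were above the median of all genes, 17.6 CPM per kb. Coefficients of variation between basal replicates ran from 5.60% to 9.28% in RPF and from 6.85% to 29.97% in RNA. They were lower in RPF for 6 of the 7 genes, by little for Abhd6 (6.60% against 6.85%), and higher in RPF for Cnr1 (7.31% against 7.05%). The assays differed in depth, with 4899202 to 6873967 counts in basal RNA and 6500934 to 22092434 in basal RPF libraries. The part of depth in these spreads was not tested. The widest, that of Napepld RNA, rests on few reads (81 to 214 counts in an RNA library).

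**Figure D3:**
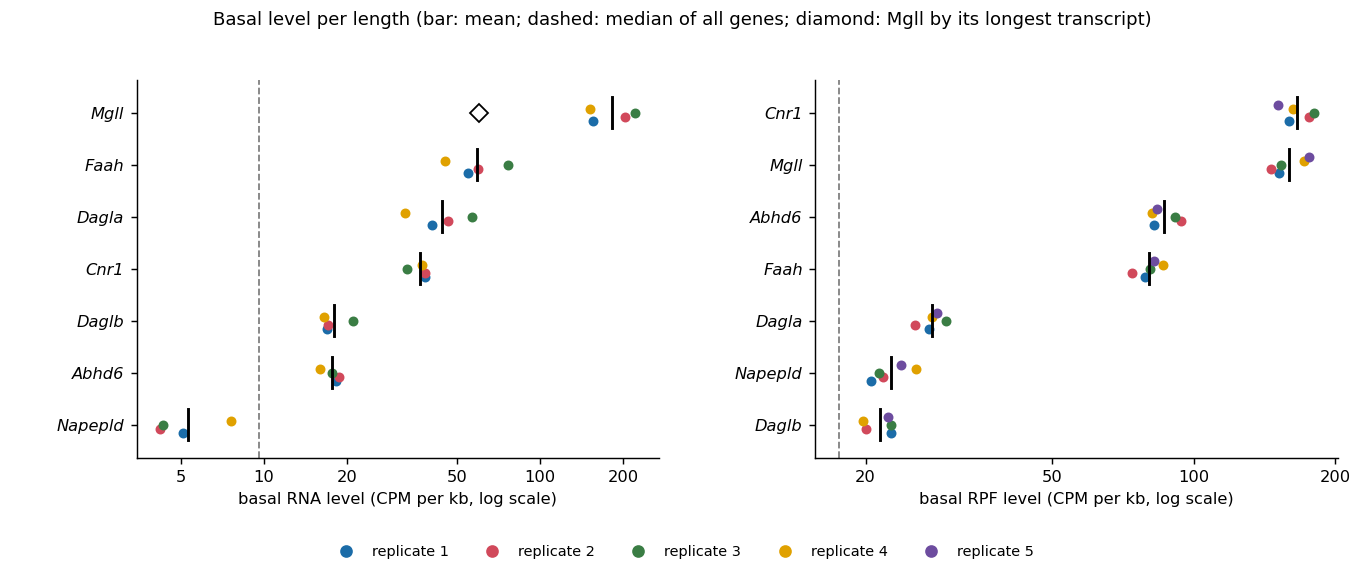
Basal level per length (CPM per kb, log axis) of each gene in every basal library, RNA on the left and RPF on the right. Bars are means, the dashed line is the median of all genes, and the diamond is Mgll RNA by its longest coding transcript, 59.9 CPM per kb. In RPF the genes form 3 tiers that do not overlap.

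Basal TE split the members into a higher and a lower group, when lengths were taken from the transcript with the longest coding sequence. This TE divides RNA by the length of the whole transcript. For its own hippocampal TE the paper mapped RNA as well as RPFs to coding sequences, so the values here are not the same measure. Abhd6 (2.30 ± 0.088, log2, SD, n = 4), Cnr1 (2.21 ± 0.17) and Napepld (2.11 ± 0.28) stood at the 82.8, 81.3 and 79.8 percentiles of 12051 genes, above the median of all genes at 0.84. Faah (0.46 ± 0.36), Daglb (0.25 ± 0.13), Mgll (-0.21 ± 0.34) and Dagla (-0.65 ± 0.33) stood at the 39.4, 34.0, 22.04 and 13.3 percentiles. Napepld, the last of the higher group, exceeded Faah, the first of the lower, in 4 of 4 replicates with no overlap (1.75 against 0.92 at the closest), whereas the order within the higher group held in only 3 of 4 replicates for each neighbour. Faah exceeded Daglb in 3 of 4 replicates, and Daglb over Mgll and Mgll over Dagla held in 4 of 4. The DHPG libraries gave the same order of the 7 genes. The width of the gap between the groups depends on the transcript length taken for Mgll. With the median length of coding transcripts Mgll moved to 0.85, the 53.4 percentile. Its replicates, from 0.54 to 1.24, then still lay below Napepld (1.71 to 2.32). Without any length correction the groups did not overlap either (lowest -0.062 for Napepld, highest -0.27 for Faah). With the longest coding transcript, chosen after seeing the data, Mgll moved to 1.45, the 62.7 percentile. Its replicates, from 1.14 to 1.84, overlapped Napepld (1.75 to 2.37), so that the separation was lost under that length only. Dagla stayed the lowest under every length tried.

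What the members of each group share beyond their TE is limited to description. The 3 genes of higher TE had a coding GC content of 50.4% to 51.9%, below the median of all genes (53.3%), and the 4 of lower TE had a GC content of 55.1% to 59.2%, above it. Coding length did not separate them, since Mgll, at 993 bases, was shorter than the 3 (1008 to 1419 bases). Coding shares of the transcript were 24.4% for Cnr1, 30.05% for Napepld and 45.3% for Abhd6, against 43.2% for Daglb, 45.4% for Faah, 55.6% for Dagla and 75.9% for Mgll in the short transcript used. TE per length contains the ratio of these lengths, so the last comparison is partly fixed by the calculation. Without any correction for length the highest 3 were again Abhd6, Napepld and Cnr1 and the lowest was Dagla, with Cnr1 at the 61.0 percentile.

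**Figure D4:**
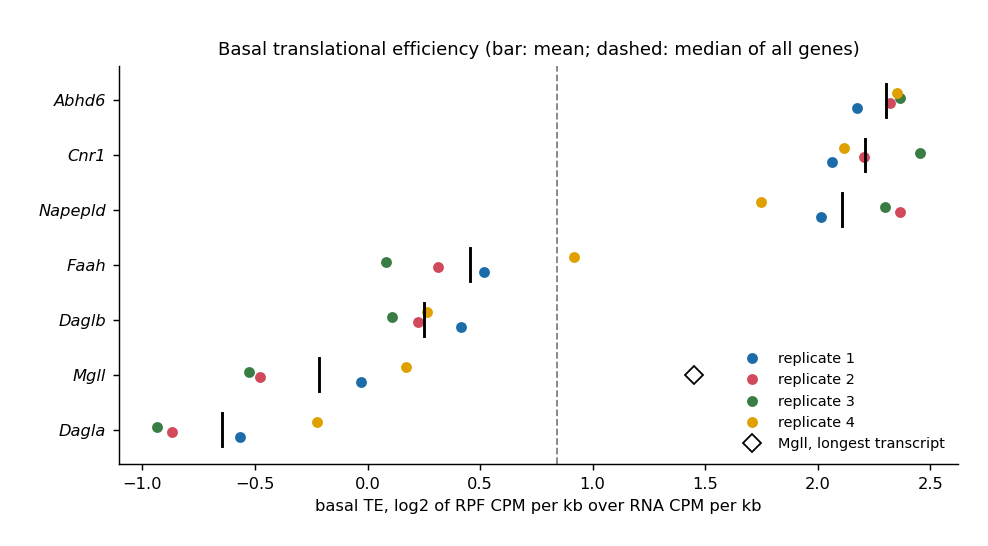
Basal TE (log2 of RPF over RNA, both in CPM per kb) of each gene in replicates 1 to 4. Bars are means, the dashed line is the median of all genes (0.84), and the diamond is Mgll by its longest coding transcript (1.45). Abhd6, Cnr1 and Napepld lie to the right of the line in every replicate and do not overlap the dots of the other 4 genes, while Mgll by its longest coding transcript would reach into the range of Napepld.

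Pairs of enzymes that act on the same lipid were compared within each library. Per length, Dagla exceeded Daglb 2.44 ± 0.35 times in basal RNA (SD, n = 4; 1.96 to 2.70), but only 1.29 ± 0.071 times in basal RPF (n = 5; 1.21 to 1.40), and the 2 ranges did not overlap. After DHPG the ratio was 2.59 ± 0.40 in RNA and 1.26 ± 0.14 in RPF, higher in 2 of 4 and in 2 of 5 pairs. Mgll exceeded Abhd6 10.3 ± 1.71 times in basal RNA and 1.86 ± 0.25 times in basal RPF. By the longest coding transcript the RNA ratio was 3.39, still above the highest basal RPF ratio of 2.1. This RNA ratio was lower in 4 of 4 pairs after DHPG, with log2 differences of -0.150 to -0.00079 (mean -0.071 ± 0.062, SD), while the RPF ratio was higher in 4 of 5 pairs (0.024 ± 0.027). Neither 4 nor 5 pairs can reach an exact two-sided p under 0.05 by sign changes, so no test was made. Napepld stood to Faah as 0.097 ± 0.050 in basal RNA and 0.28 ± 0.018 in basal RPF, again with no overlap (highest RNA value 0.168, lowest RPF value 0.261), and DHPG values were 0.096 ± 0.022 and 0.28 ± 0.043.

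**Figure D5:**
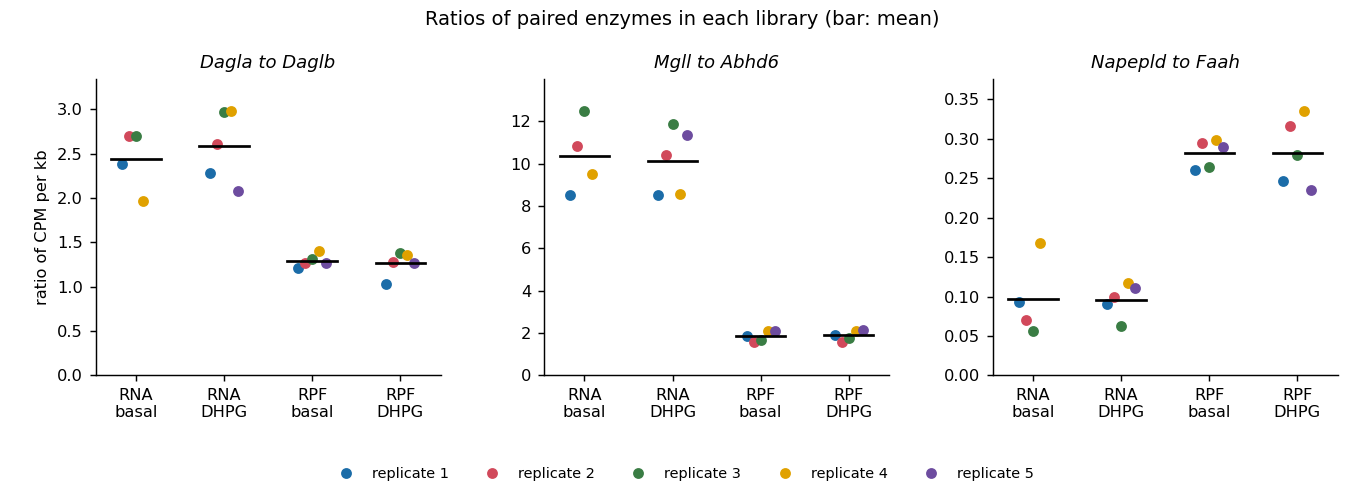
Ratio of CPM per kb between paired enzymes in each library, for diacylglycerol lipases (left), 2-AG hydrolases (middle) and anandamide synthesis over hydrolysis (right). Bars are group means. RNA and RPF ratios occupy separate ranges in all 3 panels, and basal and DHPG values overlap.

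Abhd12, which encodes a further 2-AG hydrolase, was put beside Mgll and Abhd6. Of the summed basal RPF level per length of these 3 genes, Mgll made 33.2% ± 3.26 (SD, n = 5), Abhd6 17.9% ± 0.718 and Abhd12 48.8% ± 2.66. In RNA the shares were 39.3% ± 1.30 (n = 4), 3.88% ± 0.672 and 56.8% ± 1.74. After DHPG the RPF shares were 33.4% ± 2.66, 17.7% ± 0.927 and 48.9% ± 1.98, each within 1 SD of its basal value. These are shares of ribosome footprints and not of enzyme activity, and the RNA shares carry the same uncertainty in the length of Mgll.

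Of 37 further genes of the pathway, 30 were tested in each assay. Their 7 untested genes, at 12 counts or fewer in every library, included the receptors Cnr2, Gpr55 and Trpv1, so that Cnr1 was the 1 receptor of the set with enough reads. By edgeR 0 of 30 passed in RNA, RPF or TE, and 3, 3 and 1 had an unadjusted p under 0.05, beside 8.02%, 10.8% and 6.77% of all genes tested, so these counts are near the background. DESeq2 with the block called 0 of 30 in RNA and 0 of 9 with an adjusted p in RPF. The ComBat route followed by DESeq2 called 1 of 22 with an adjusted p in RPF (Gprasp1), beside 427 of all 13208 genes. Median log2 differences were 0.019 in RNA, -0.0035 in RPF and -0.037 in TE, beside 0.0068, 0.0031 and -0.0014 over all genes.

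The pathway gene nearest to the threshold was Gprasp1, which encodes a protein that steers internalised receptors to lysosomes. Its RPF level was 519 ± 57.3 CPM in basal and 476 ± 64.2 CPM in DHPG libraries (SD, n = 5 each), with all 5 pairs lower after DHPG. The log2 difference was -0.12 ± 0.032 (SE, edgeR adjusted p = 0.0908), and its RNA difference was -0.15 (edgeR adjusted p = 0.616). Plcb4, a phospholipase C beta, was at 0.16 in RPF (edgeR adjusted p = 0.265, higher in 4 of 5 pairs) and at 0.26 in RNA (edgeR adjusted p = 0.578, higher in 3 of 4 pairs). Neither gene passed. Leaving out replicate 2 or replicate 5 gave 0.078 or 0.234 for Plcb4 RPF. Gna11, one of the Gq proteins, was at 0.15 in RNA and -0.18 in TE (edgeR adjusted p = 0.609 and 0.690). Naaa, a lysosomal amidase, was at 0.10 in RPF, higher in 5 of 5 pairs (edgeR adjusted p = 0.367). The remaining extreme values did not pass either, and several moved by over 1.5 times with 1 replicate left out. In RNA they were -0.21 for Pla2g4e, a transacylase that makes the precursors of anandamide, -0.13 for Fabp3, a lipid carrier, and 0.15 for Arrb2, an arrestin. In RPF they were 0.20 for Pla2g4e, -0.094 for the carrier Fabp7 and -0.059 for Cnrip1, a protein that binds the tail of CB1. In TE they were 0.41 for Pla2g4e, 0.13 for Fabp5, 0.10 for Fabp3, -0.15 for Plcb2 and -0.13 for Arrb2. Pla2g4e and Plcb2 had few reads, with TE SEs of 0.24 and 0.43. A library held 15 to 47 RNA and 24 to 77 RPF counts of Pla2g4e, and 3 to 18 and 5 to 29 of Plcb2.

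The members did not follow one common course across libraries. Over the 9 RNA libraries, Pearson's r of log2 CPM was 0.92 for Dagla with Faah, 0.84 for Dagla with Mgll and 0.81 for Mgll with Faah, and it was -0.86 for Napepld with Faah and -0.80 for Cnr1 with Daglb. In the 10 RPF libraries Mgll and Faah (0.83) and Cnr1 and Abhd6 (0.82) ran together, Dagla and Faah did not (0.12), and Abhd6 and Faah ran opposite (-0.72). These libraries are pairs of the same replicate numbers and differ in depth and in marker sums between numbers, so the values describe replicate numbers more than treatments. Among 9415 genes, those most like Cnr1 over the RPF libraries were Ubr4 (r = 0.97), Abhd13 (0.96), Abca1 (0.96), Tmem106b (0.95) and Ralgapa1 (0.95). Over the 9 RNA libraries the same genes gave r = -0.55, 0.60, -0.32, 0.72 and 0.77 with Cnr1, so that the likeness of Ubr4 and Abca1 was not shared by their RNA. The single gene most like each other member in RPF was Gatad2b for Dagla (0.89), Neu1 for Daglb (0.91), Lzts1 for Mgll (0.97), Nceh1 for Abhd6 (0.98), Fbxo33 for Napepld (0.97) and Cdk5 for Faah (0.97). In the same order, these pairs gave r = 0.17, 0.77, 0.29, 0.35, 0.68 and 0.61 over the RNA libraries. Each RPF value named is among the highest of 9415 genes, so the search itself favours a high r, and no p was computed.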

How the data were processed

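RNA-seq and ribosome profiling of 19 samples were used as deposited. The authors removed adapters, rRNA and tRNA reads, aligned to mm10, dropped duplicate molecules and ran RSEM, whose expected counts were deposited rounded and not normalized (whole transcripts for RNA, coding sequences without their ends for RPFs). Another 12 columns (replicates 6 to 8) match none of the samples and were left out. In R 4.3.3, edgeR 4.0.16 gave TMM normalization, filterByExpr and the quasi-likelihood test, blocked by replicate number (TE: the interaction of library type and treatment), adjusted by Benjamini-Hochberg over all genes tested. Every adjusted p is from edgeR unless DESeq2 (1.42.0) or limma (3.58.1) is named, and ComBat was run in sva 3.50.0. The study batched by replicate number, and deviations from group means correlated within every number (r = 0.308 to 0.741 in RNA, 0.259 to 0.523 in RPF), which by the rule used (every r over 0.1) pairs the samples, although RNA replicate 2 correlated more with another number (0.467). DHPG RNA replicate 5, without a partner, adds only to its own block. Log2 CPM used a prior count of 2. Lengths, positions and sequences come from GENCODE vM21. The study pooled mice within replicates, so p-values do not measure the spread between single mice. With the replicate block they measure how the DHPG to basal difference varied between replicate numbers, not how levels varied between pools. The steps were tested on simulated data. The members, the pathway list and the marker lists were chosen with earlier results of these data known. One group of the pathway list is not reported here. Named were all members, the 3 pathway genes with the largest change each way in each assay, and the genes most like each member over RPF libraries with a mean of at least 10 CPM. Alternatives were DESeq2 size factors, other filters (none, or 10 counts in every library), no block, DESeq2, ComBat then DESeq2, limma for TE, other thresholds, other lengths and each replicate left out.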

Additional observations from a re-analysis of the deposited data

Results flagged for a closer look

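In 54 groups of libraries (each member's CPM by assay and treatment, the enzyme ratios and the TE values), 4 held a library far from the others by Dixon's 95% criterion, where chance flags about 1 in 20 groups. Cnr1 RNA in basal replicate 3 was 191 CPM, below the other basal libraries at 218 to 222 CPM. Daglb RNA in the same library was 98 CPM, above the others at 76.7 to 79.7 CPM. Faah RNA in DHPG replicate 3 was 263 CPM, above the others at 201 to 217 CPM. Dagla RPF in DHPG replicate 1 was 73.2 CPM, below the others at 88.6 to 93.2 CPM. Of these 4 values, 3 came from RNA replicate 3.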

How the results depend on the processing

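The number of genes called changed with the processing, and no member passed the thresholds of 0.01 (RNA) and 0.05 (RPF, TE) under any alternative that gave it an adjusted p. DESeq2 gave one to 6 (RNA) and 5 (RPF) of the 7 after ComBat and to 2 in RPF with the block, and neither route was run for TE. At 0.05 Dagla RNA passed after ComBat (0.0489). RNA genes called (1 as reported) were 7 without a filter, 0 with 10 counts in every library, 0 in DESeq2 with the block, 100 after ComBat and DESeq2, and 0 to 22 with 1 replicate left out (22 without replicate 2). RPF genes called (29) were 96 without a filter, 427 after ComBat and DESeq2, 8 at an adjusted p of 0.01, and 3 to 71 with 1 replicate left out (10, 3, 71 and 50 on leaving out number 1, 2, 3 and 5). TE genes called (0) were 8 without a filter and 0 to 8 with 1 replicate left out. Without the replicate block 0 RNA, 0 RPF and 0 TE genes were called, and no member or named pathway gene gained or lost a call. The pathway gene Gprasp1 passed in RPF without a filter (adjusted p = 0.0152), after ComBat and DESeq2 (adjusted p = 2.92e-06 by DESeq2) and without replicate 4 (0.0441), Plcb4 without replicate 5 (0.0461) and Fabp7 without replicate 3 (0.0469), each by edgeR unless DESeq2 is named.

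Signs turned in 10 of the named values. With 1 replicate left out, the log2 difference ran from -0.0033 to 0.075 for Cnr1 RNA, -0.068 to 0.024 for Cnr1 TE, -0.00012 to 0.094 for Dagla RPF, -0.030 to 0.065 for Daglb RNA, -0.0026 to 0.108 for Daglb TE, -0.137 to 0.112 for Napepld RNA, -0.070 to 0.179 for Napepld TE, -0.071 to 0.052 for Faah RNA, -0.028 to 0.238 for Fabp3 TE and -0.638 to 0.104 for Plcb2 TE. The library number whose removal turned the sign was 4 for Cnr1 RNA and TE, Daglb TE, Napepld RNA and TE and Fabp3 TE, also 3 for Cnr1 TE and Faah RNA, 2 for Dagla RPF, Daglb RNA and Faah RNA, 1 for Daglb RNA and Plcb2 TE, and 5 for Plcb2 TE. Plcb2 TE was 0.203 by limma on the difference, ComBat gave -0.00097 for Daglb RNA, and Napepld RNA was 0.0027 in DESeq2 with the block and 0.017 without the replicate block. Many values that kept their sign moved by over 1.5 times with 1 replicate left out, among them Daglb RPF 0.019 to 0.120, Plcb4 RPF 0.078 to 0.234, Pla2g4e RPF 0.079 to 0.304 and RNA -0.283 to -0.045, Fabp3 RNA -0.272 to -0.023 and Fabp5 TE 0.027 to 0.225. The Dagla RNA difference stayed above 0 under every alternative (0.079 to 0.208), with adjusted p from 0.0489 (ComBat then DESeq2) to 0.9999.

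Basal TE less the median of all genes moved by more than its SD without length correction for Cnr1 (0.29), Daglb (-0.83), Mgll (-0.53), Abhd6 (1.25) and Napepld (0.47). With the longest coding transcript, chosen after seeing the data, it was 0.49 for Mgll and 1.34 for Abhd6, the latter because the median of all genes moved, and with the median length 0.12 for Mgll. The Mgll to Abhd6 RNA ratio was 3.39 and 4.77 under these lengths. The cause of the other changes was not tested.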
